A study of Mus musculus with 20 samples.

Results

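Tumour-associated microglia and macrophages differ in their RNA, and the genes described here are those in which that lineage difference was not the same in 2 mouse glioma models. For each gene, the ratio of its level in bone-marrow-derived macrophages (BMDM) to its level in microglia (MG) was formed within each model, and the ratio in GL261 tumours was compared with the ratio in GEMM tumours. The contrast used 12 of the 20 libraries in the series, as 4 groups of 3, with MG and BMDM from 3 tumours of each model. Of 15363 genes tested, 250 differed between the models: in 93 the BMDM to MG ratio was larger in GL261, in 157 smaller.

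Every mouse was of the strain C57BL/6. In the genetically engineered mouse model (GEMM), DF1 cells, an avian line that produces RCAS viruses, were placed in the brain of Flt3:Cre Rosa26:mTmG mice at 5 to 6 weeks of age, as a mixture releasing RCAS-PDGFB-HA (the growth factor PDGFB) and RCAS-shP53 (a hairpin against p53). GL261 is a mouse glioma cell line; the sources used here do not give how its tumours were started, the age of those mice or whether they carried the same reporter. In the reporter, Cre under the Flt3 promoter turns cells that descend from Flt3-expressing blood progenitors from TdTomato to GFP. The protocol in the labels gates CD45+ CD11b+ Ly6C- Ly6G- cells and takes the GFP- TdTomato+ fraction as MG and the GFP+ TdTomato- fraction as BMDM, so a marrow-derived cell that escaped Cre would be sorted as MG. The other 8 libraries, 3 of MG from normal brain and 5 of Ly6C-high blood monocytes, entered the estimate of the spread and serve as reference levels.

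Microglia settle in the brain before birth and renew there, whereas BMDM enter a tumour from blood monocytes and take on macrophage or dendritic cell features in the tissue. Both express Fc receptors, complement, lysosomal proteases and, when stimulated, MHC class II molecules. P2ry12, Tmem119, Sall1 and Siglech are widely used microglia genes, while Itga4 (integrin alpha 4) and Ccr2 (a chemokine receptor of monocytes) mark cells recruited from blood.

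The 12 tumour libraries held 18113450 to 36297826 counts each, with GEMM libraries at 23064781 or more and GL261 libraries at 22088979 or less, so model and depth moved together, and their part in the results was not tested. Levels below are CPM, read counts brought to a common library size with edgeR's TMM factors, not per gene length, so they are compared between libraries and not between genes. Per-library values follow the tumour order 68702, BB30101, BB30105 for GEMM and 80766, 80767, 80769 for GL261. The lineage genes kept their labels' order in every tumour. P2ry12 stood at 1916, 1053 and 2239 CPM in GEMM MG, 321, 166 and 310.5 in GEMM BMDM, 642, 574 and 139 in GL261 MG and 53.3, 52.05 and 73.9 in GL261 BMDM. Itga4 stood at 5.22, 8.74 and 3.32 CPM in GEMM MG, 94.4, 102 and 117 in GEMM BMDM, 14.7, 16.6 and 30.3 in GL261 MG and 87.6, 82.9 and 71.98 in GL261 BMDM. P2ry12 was thus higher in MG than in BMDM, and Itga4 higher in BMDM than in MG, in each of the 6 tumours.

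Both GL261 libraries of tumour 80769 stood apart. The 10 microglia markers of its MG library summed to 954 CPM, against 4672 and 4066 in the other GL261 MG libraries and 7585 to 13970 in GEMM MG, while border-associated macrophage markers summed to 948 CPM against 108 and 73.0. In its BMDM library, border-associated macrophage markers summed to 4599 CPM, against 1147 and 1134 in the other GL261 BMDM libraries. The list's highest means over the GL261 BMDM libraries were Mrc1 at 961 CPM, Ms4a7 at 595 and Cd163 at 297. Lyve1 had a mean of 0.929 CPM there and Cd209f of 0, so the sums do not stand for every member. Counts of the 80769 libraries differed from those of the others in their group by a chi-square per degree of freedom of 172 to 231, against 33.7 and 37.7 between the other pairs of GL261 MG and of GL261 BMDM. Markers of oligodendrocyte precursors or glioma cells summed to 546, 690 and 1081 CPM in GL261 MG and to 223, 455 and 379 in GL261 BMDM, against 184 to 276 in GEMM MG and 18.4 to 127 in GEMM BMDM. Dendritic cell markers summed to 666, 1431 and 1736 CPM in GEMM BMDM and to 199.7, 180.5 and 637 in GL261 BMDM, with 105 to 167 in the 6 MG libraries. Fscn1 made up much of the MG sums, with means of 75.3 CPM in GEMM MG and 105 in GL261 MG. It was not higher in BMDM (72.1 in GEMM, 67.9 in GL261), nor was Xcr1 in GL261 (4.9 in MG, 4.02 in BMDM). These sums, too, do not stand for every member. Neutrophil markers reached 2243 CPM in GEMM BMDM 68702 against 268.5 and 195 in the other GEMM BMDM libraries, and its counts differed from theirs by a chi-square per degree of freedom of 183 and 195, against 72.9 between those. The list's highest means in GEMM BMDM were Retnlg at 609 CPM and Csf3r at 187. Every other member had a mean of 38.2 CPM or less, with Ltf at 1.74 and Camp at 0, so the sum does not stand for the whole list. The part of these marker differences in the results below was not tested, and in sorted bulk RNA, fewer cells of a type and less RNA per cell cannot be told apart.

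**Figure D1:**
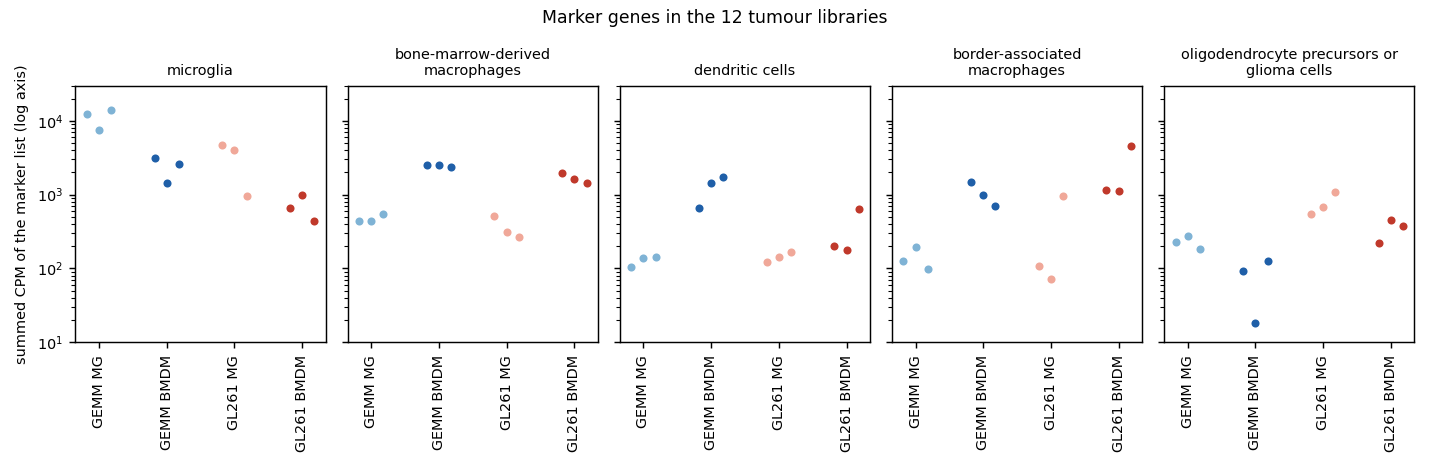
Summed level of 5 marker lists (CPM, log axis) in the 12 tumour libraries, 1 point per library, by group. Microglia markers fall to 954 CPM in 1 GL261 MG library, dendritic cell markers reach 666 to 1736 CPM in GEMM BMDM, and glioma or precursor markers reach 546 to 1081 CPM in GL261 MG.

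The 93 genes with a larger ratio in GL261 were 0.605% of genes tested and the 157 with a smaller ratio 1.02%, together 1.63%, in edgeR's quasi-likelihood test at a Benjamini-Hochberg adjusted p under 0.05. By comparison, BMDM and MG differed in 20.8% of genes within GEMM (12.7% higher and 8.1% lower in BMDM) and in 17.5% within GL261 (10.7% and 6.81%). The median difference between models, on the log2 scale, was 1.20 for the 93 genes and -2.54 for the 157, against -0.06 for all genes tested. The adjusted p and SE given for single genes come from the 20-library fit unless another is named. This fit took its spread from all 6 groups and did not pair the MG and BMDM of a tumour. Counts of tumour libraries in the same group differed by a chi-square per degree of freedom of 33.7 up to 231. For normal MG pairs it lay between 17.8 and 29.8, and for monocyte pairs, with fewer counts, between 3.08 and 123. The number of calls differed between fits, and the cause was not tested. With only the 12 tumour libraries in the fit, which left 14356 genes to test, 21 were called, 7 with a larger and 14 with a smaller ratio, and 20 of them were among the 250. With the tumour number added to that fit as a block, 297 were called, 105 larger and 192 smaller, 144 of them among the 250. No call changed sign in any alternative.

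Single libraries moved the counts as well. Larger and smaller ratios numbered 54 and 49 without GEMM MG 68702, 170 and 187 without GEMM MG BB30101, and 111 and 71 without GEMM MG BB30105. They numbered 280 and 179 without GEMM BMDM 68702, 33 and 69 without GEMM BMDM BB30101, and 50 and 104 without GEMM BMDM BB30105. In GL261, they numbered 141 and 213 without MG 80766, 48 and 116 without MG 80767, 83 and 61 without BMDM 80766, and 202 and 107 without BMDM 80767. Of the libraries of tumour 80769, which stood apart, leaving out MG gave 88 and 148, and 166 of the 250 kept their call, while leaving out BMDM gave 61 and 186, and 181 kept theirs. The split between directions also rested on scaling. TMM raised the effective depth of the GL261 MG libraries by factors of 1.17 to 1.28; with total counts as the scale, the median of all genes moved from -0.06 to -0.36, and 39 larger and 406 smaller ratios were called, so that 8.76% of calls were larger against 37.2%.

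**Figure D2:**
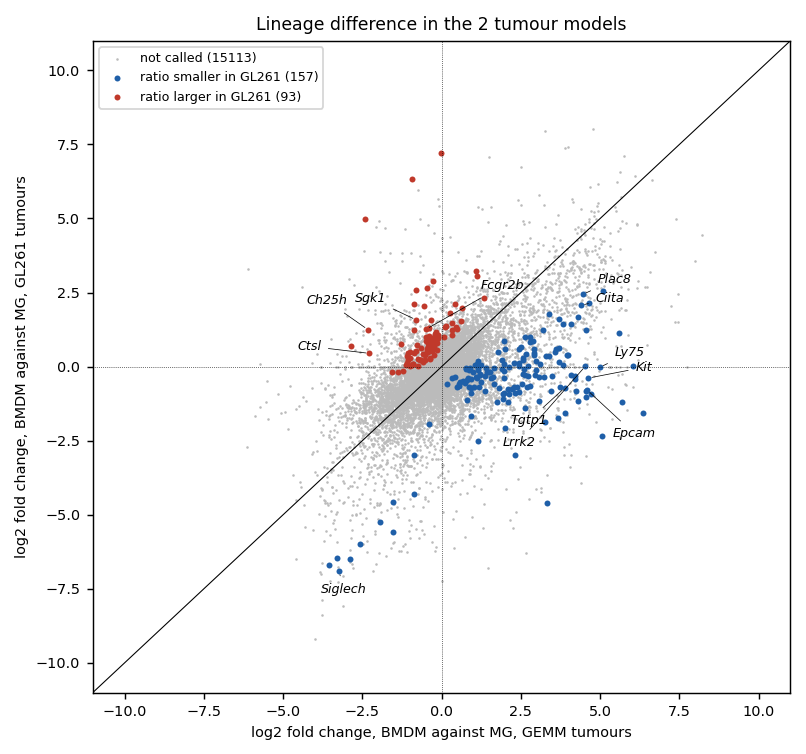
Log2 fold change of BMDM against MG in GEMM tumours (horizontal) and in GL261 tumours (vertical) for 15363 genes, with the line of equal change. The 157 genes with a smaller ratio in GL261 (blue) lie below the line and mostly near 0 on the vertical axis, and the 93 with a larger ratio (red) lie above it.

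Most of the 157 genes were BMDM genes in GEMM tumours that showed no called lineage difference in GL261 tumours. Of the 157, 140 were higher in BMDM than in MG in GEMM; of these, 120 had no call in GL261, 14 were higher in BMDM there too and 6 were lower. Another 9 were lower in BMDM in GL261 alone, and 8 were lower in BMDM in both models. Because the difference between models was itself the call, this division describes where each gene's 2 ratios stood and is not a second test. Of the 93 genes with a larger ratio, 50 were higher in BMDM in GL261 with no call in GEMM, 28 were lower in BMDM in GEMM with no call in GL261, 9 were lower in GEMM and higher in GL261, and 6 were higher in both.

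Read by lineage, the differences lay more often in MG. Of the 157 genes, 110 were higher in GL261 MG than in GEMM MG, 10 lower and 37 not called, while 62 were lower in GL261 BMDM than in GEMM BMDM, 12 higher and 83 not called. Of the 93, 80 were lower in GL261 MG and 13 not called, while in BMDM 30 were higher, 4 lower and 59 not called. Over all genes, MG of the 2 models differed in 34.3% (18.8% higher and 15.5% lower in GL261) and BMDM in 19.7% (10.2% and 9.46%). The median gene of the 157 had a mean of 4.71 CPM in GEMM MG, 22 in GEMM BMDM, 18.2 in GL261 MG and 14.8 in GL261 BMDM, beside 3.89 in normal MG and 19.5 in monocytes. By these medians the low group was GEMM MG, at a level near that of normal MG. Gene by gene, GEMM MG lay nearer normal MG than GL261 MG did in 118 of the 157 (75.2%), against 62.3% of all genes tested. Among the 93 genes with a larger ratio, it lay nearer in 39 (41.9%), below the share of all genes. The median gene of the 93 had 97.1 CPM in GEMM MG, 87.4 in GEMM BMDM, 57.7 in GL261 MG and 105 in GL261 BMDM, so that GL261 MG was the low group. Monocytes exceeded normal MG in 121 of the 157 genes (77.1%) and in 39 of the 93 (41.9%), against 49.8% of all genes tested. The levels of the 4 tumour groups also made the calls. The counts and shares by lineage therefore describe the called genes and are not a second test.

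The ratio of each tumour, log2 of BMDM over MG with 1 CPM added to both, gives the spread between tumours. For each of the 93 genes, the 3 GL261 ratios lay above the 3 GEMM ratios, and for 153 of the 157 they lay below; without regard to a test, the ratios of the models did not overlap in 13.1% and 16.8% of all genes. The ratios come from the same libraries as the calls, so this separation describes the called genes and is not a second test. For a single gene, an exact permutation test of 3 tumours against 3 cannot go below p = 0.1.

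A set of 16 genes with a mean of 20 CPM or more in at least 1 tumour group was called in each of the 3 fits (20 libraries, 12 libraries, 12 libraries with the tumour block), and the results turn on them. The 10 with a smaller ratio in GL261 were Kit, Ly75, Tgtp1, Lrrk2, Ppp1r16b, Slc25a24, Lpcat4, Nedd9, Tle1 and Hap1. Of these, Lrrk2 lies at chr15:91672791-91816124, Kit at chr5:75574987-75656722 and Ly75 at chr2:60292103-60383273 on GRCm38.p6. The 6 with a larger ratio were Sgk1, Fcgr2b, Cndp2, Aldh3b1, Atp1b3 and Lrpap1, with Sgk1 at chr10:21882184-21999903 and Fcgr2b at chr1:170960558-170976071. The 16 genes' direction was the same in each of 19 alternatives, as it was for all 250 called genes, and 15 of the 16 were called in all of them. The 12-library and block fits are among these alternatives and also chose the 16, so the calls there were fixed in advance. Hap1 lost its call without GEMM MG 68702 (log2 -2.36, edgeR adjusted p = 0.0567). None of the other 35 named and called genes was called in the 12-library fit. Where a call below was lost under a setting, the number in parentheses is the edgeR adjusted p there.

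Kit and Ly75, which encode surface receptors, were among the genes with a smaller ratio in GL261. Kit, the receptor tyrosine kinase for stem cell factor, stood at 2.07, 8.89 and 3.19 CPM in GEMM MG, 74.2, 137 and 146 in GEMM BMDM, 39.98, 43.2 and 89.7 in GL261 MG and 39.4, 46.6 and 46.2 in GL261 BMDM. Each GEMM MG library lay below the 9 other tumour libraries, and the GL261 groups overlapped. The log2 ratio of BMDM to MG was 4.63 in GEMM and -0.39 in GL261, a difference between models of -5.01 ± 0.92 (SE, edgeR adjusted p = 0.0109), or -5.76 without GEMM MG BB30101. Ly75 (DEC-205), an endocytic receptor of dendritic cells, stood at 0.443, 0.962 and 0.576 CPM in GEMM MG, 10.1, 28.1 and 27.1 in GEMM BMDM, 11.6, 7.96 and 16.9 in GL261 MG and 9.32, 10.6 and 16.1 in GL261 BMDM. Its GL261 groups overlapped, whereas GEMM BMDM lay above GEMM MG in every tumour. The Ly75 difference between models was -5.01 ± 0.78 (SE, edgeR adjusted p = 0.00413), and its ratios were 2.94, 3.89 and 4.16 in the GEMM tumours against -0.29, 0.37 and -0.07 in the GL261 tumours.

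Other dendritic cell and antigen presentation genes were called with less support. Xcr1, the chemokine receptor of cross-presenting dendritic cells, stood at 1.28, 3.001 and 2.83 CPM in GEMM MG, 8.14, 20.6 and 26.1 in GEMM BMDM, 4.11, 7.43 and 3.14 in GL261 MG and 3.78, 4.48 and 3.81 in GL261 BMDM. Each GEMM BMDM library lay above the 9 other tumour libraries, and its difference between models was -3.22 ± 0.60 (SE, edgeR adjusted p = 0.0113). Ciita, the coactivator that switches on MHC class II genes, stood at 6.499, 19.1 and 9.26 CPM in GEMM MG, 166, 307 and 265 in GEMM BMDM, 45.5, 25.3 and 20.5 in GL261 MG and 204, 89.2 and 89.8 in GL261 BMDM. BMDM exceeded MG in all 6 tumours, by less in GL261, with a difference of -2.33 ± 0.56 (SE, edgeR adjusted p = 0.0428); the call was lost without the filter on low counts (0.0832) and without GEMM MG 68702 or BB30105, GEMM BMDM BB30101 or BB30105, GL261 MG 80766 or 80767 or GL261 BMDM 80767 or 80769 (0.0623 to 0.134). The 10 dendritic cell markers, of which Xcr1 is 1, summed to 666 to 1736 CPM in GEMM BMDM and 180.5 to 637 in GL261 BMDM. For Xcr1 this sum is thus not a separate observation, and the part of dendritic cells was not tested.

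Lrrk2, a large kinase and GTPase that acts on Rab proteins of endosomes and lysosomes, had the smallest adjusted p of the contrast. It stood at 1.62, 1.72 and 1.06 CPM in GEMM MG, 42.7, 29.1 and 31.1 in GEMM BMDM, 11.1, 7.297 and 18.3 in GL261 MG and 12.3, 11.5 and 13.2 in GL261 BMDM. GEMM MG held under 2 CPM, GEMM BMDM was the highest of the 4 tumour groups, and both GL261 groups lay between them and overlapped. The ratio was 4.53 on the log2 scale in GEMM and 0.01 in GL261, a difference of -4.52 ± 0.41 (SE, edgeR adjusted p = 3.64e-05). Blood monocytes held 77.7 to 108 CPM and normal MG at most 0.392. Tgtp1, an interferon-induced GTPase of cell-autonomous defence, stood at 0.345, 1.14 and 0.93 CPM in GEMM MG, 9.55, 9.84 and 17.7 in GEMM BMDM, 52.4, 58.2 and 44.2 in GL261 MG and 42.2, 34.6 and 18.03 in GL261 BMDM. Both GL261 groups lay above both GEMM groups, by 5.95 log2 units in MG and 1.35 in BMDM. The log2 ratio of BMDM to MG was 3.89 in GEMM and -0.71 in GL261, a difference of -4.60 ± 0.55 (SE, edgeR adjusted p = 5.53e-04). Tgtp1 has a near-identical neighbour, Tgtp2, and the counting could have split their reads, so its level is uncertain.

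Scaffold, corepressor and regulatory subunit genes followed the same pattern. Nedd9, a docking protein of integrin signalling, stood at 19.1, 22.5 and 12.1 CPM in GEMM MG, 147, 113 and 95.4 in GEMM BMDM, 57.2, 56.5 and 110.2 in GL261 MG and 59.8, 83.1 and 86.8 in GL261 BMDM. Tle1, a Groucho-family transcriptional corepressor, stood at 7.24, 6.26 and 8.104 CPM in GEMM MG, 50.01, 32.6 and 44.5 in GEMM BMDM, 20.2, 19.6 and 33.8 in GL261 MG and 29.9, 35.4 and 20.03 in GL261 BMDM. In both, GEMM MG was below all 9 other tumour libraries, and the GL261 groups overlapped. The difference between models was -2.69 ± 0.37 (SE, edgeR adjusted p = 0.00232) for Nedd9 and -2.35 ± 0.36 (SE, edgeR adjusted p = 0.00349) for Tle1. Ppp1r16b, a membrane-bound regulatory subunit of protein phosphatase 1, stood at 1.18, 2.13 and 1.196 CPM in GEMM MG, 15.5, 15.7 and 18.9 in GEMM BMDM, 22.8, 22.7 and 41.2 in GL261 MG and 11.04, 22.2 and 15.2 in GL261 BMDM. Hap1, a huntingtin-associated trafficking protein, stood at 7.73, 9.96 and 6.997 CPM in GEMM MG, 33.9, 28.02 and 24.4 in GEMM BMDM, 19.2, 23 and 31.9 in GL261 MG and 8.72, 18.8 and 17.2 in GL261 BMDM. GL261 MG exceeded the GL261 BMDM level of the same tumour in all 3 tumours for both genes. Their differences between models were -4.29 ± 0.69 (SE, edgeR adjusted p = 0.00525) and -2.53 ± 0.49 (SE, edgeR adjusted p = 0.0145).

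The last pair of this group encodes metabolic enzymes and carriers. Slc25a24, which exchanges ATP-magnesium for phosphate across the inner mitochondrial membrane, stood at 1.18, 2.83 and 1.37 CPM in GEMM MG, 18.4, 25.3 and 18.5 in GEMM BMDM, 19.5, 32.02 and 45.7 in GL261 MG and 17.4, 28.6 and 31.3 in GL261 BMDM. Lpcat4, a lysophospholipid acyltransferase, stood at 1.28, 2.19 and 1.73 CPM in GEMM MG, 18.9, 21.7 and 33.6 in GEMM BMDM, 10.03, 16.9 and 23.6 in GL261 MG and 15.6, 25.1 and 11.9 in GL261 BMDM. GEMM MG held under 3 CPM of each in every tumour and no other tumour library held under 10. The differences between models were -3.82 ± 0.46 (SE, edgeR adjusted p = 5.53e-04) and -3.76 ± 0.45 (SE, edgeR adjusted p = 5.53e-04).

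**Figure D3:**
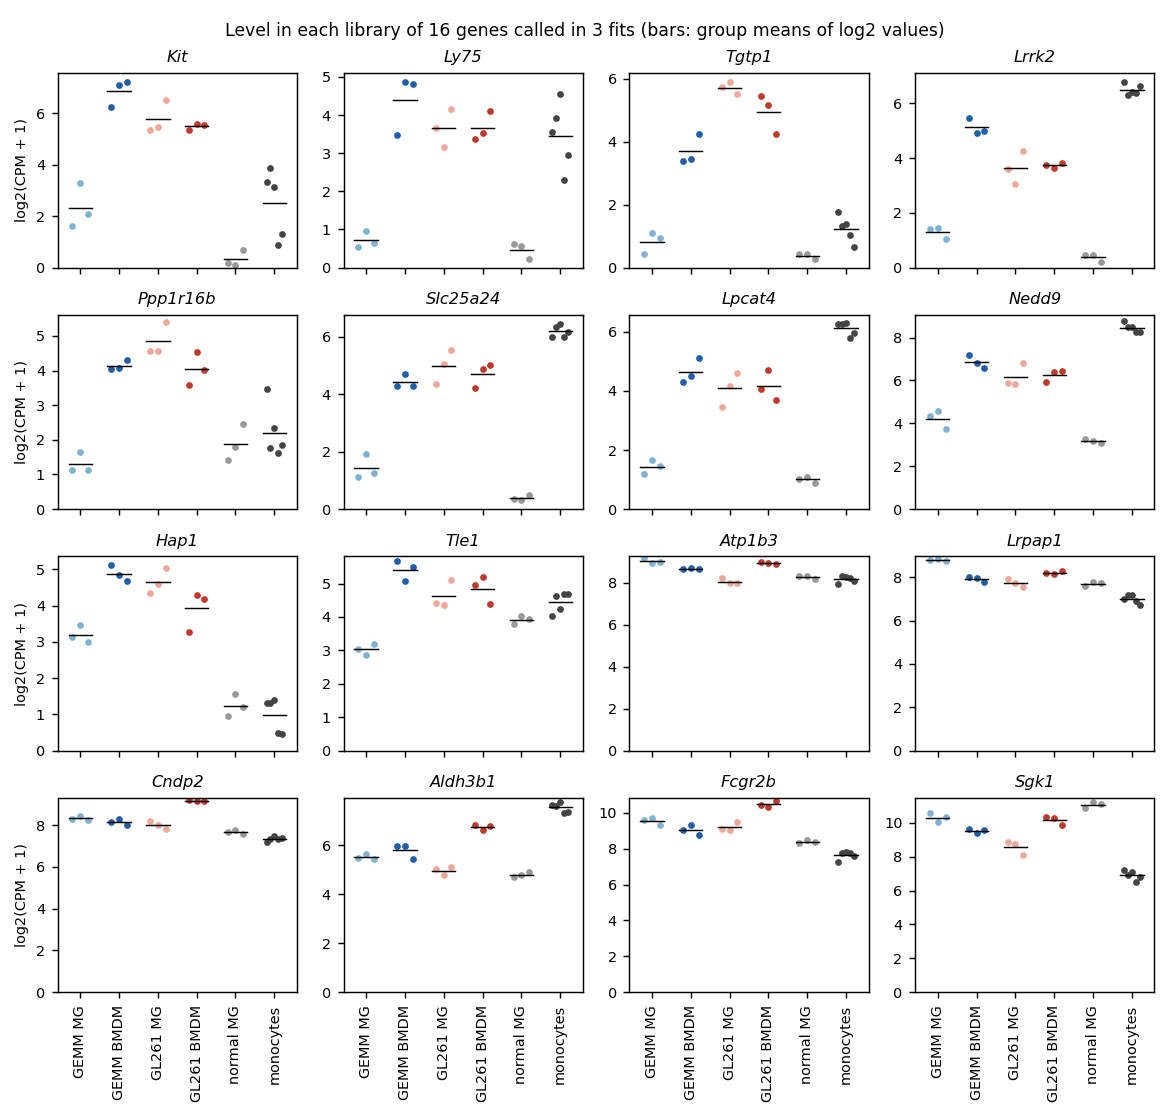
Level of the 16 genes called in 3 fits, as log2(CPM + 1), in all 20 libraries by group, with group means as bars. For the first 10 genes the GEMM MG points lie below the 3 other tumour groups, except in Hap1, where they overlap GL261 BMDM, and for the last 6 the GL261 BMDM points lie above those of GL261 MG.

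Adhesion and calcium-binding genes were among the largest differences, but none of them was called in the 12-library fit. Epcam, an epithelial adhesion molecule also present on some dendritic cells, stood at 2.27, 14.01 and 0.841 CPM in GEMM MG, 72.8, 217 and 134 in GEMM BMDM, 25.2, 64.6 and 54.97 in GL261 MG and 15.2, 44.01 and 24.3 in GL261 BMDM. L1cam, a neural adhesion molecule, stood at 0.246, 1.11 and 0.443 CPM in GEMM MG, 10.02, 9.71 and 16.8 in GEMM BMDM, 14.2, 38.7 and 48.6 in GL261 MG and 8.42, 27.1 and 22.3 in GL261 BMDM. S100a6, a small calcium-binding protein, stood at 3.102, 10.9 and 1.37 CPM in GEMM MG, 54.6, 136 and 101 in GEMM BMDM, 54.5, 108 and 172 in GL261 MG and 41.2, 80.5 and 144 in GL261 BMDM. For all 3, GEMM BMDM exceeded GEMM MG in each tumour and GL261 MG exceeded GL261 BMDM in each tumour. The differences were -5.39 ± 0.99 (SE, edgeR adjusted p = 0.0112) for Epcam, -5.05 ± 0.80 (SE, edgeR adjusted p = 0.00462) for L1cam and -4.54 ± 0.86 (SE, edgeR adjusted p = 0.0129) for S100a6, and the S100a6 call was lost without GEMM MG 68702 (0.0504). The Epcam difference was -7.19 without GEMM MG BB30101 and -4.76 without GEMM MG BB30105, that of L1cam -5.80 without GEMM MG BB30101 and that of S100a6 -5.66 without GEMM MG BB30101. With only the 12 tumour libraries their edgeR adjusted p was 0.09597, 0.0563 and 0.0983. Markers of glioma or precursor cells were also highest in GL261 MG, at 546 to 1081 CPM, and their part in these 3 genes was not tested.

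Siglecg, an inhibitory receptor for sialic acid, stood at 1.67, 5.51 and 1.904 CPM in GEMM MG, 40.7, 71.4 and 60.7 in GEMM BMDM, 9.34, 6.06 and 1.95 in GL261 MG and 1.16, 1.91 and 9.76 in GL261 BMDM. BMDM exceeded MG in each GEMM tumour, whereas in GL261 it was below MG in tumours 80766 and 80767 and above it in 80769. Its difference of -4.64 ± 1.06 (SE, edgeR adjusted p = 0.0355) was lost with the tumour block (0.0903), without the filter on low counts (0.0832) and without GEMM MG 68702 or BB30105, GEMM BMDM BB30101 or BB30105, GL261 MG 80766 or 80767 or GL261 BMDM 80766 or 80767 (0.0626 to 0.104), and was -5.33 without GEMM MG BB30101 and -6.17 without GL261 BMDM 80769. Mfsd6, a membrane transporter-like protein, stood at 2.22, 6.85 and 1.904 CPM in GEMM MG, 23.6, 42.7 and 38.3 in GEMM BMDM, 11.5, 19.02 and 35.4 in GL261 MG and 7.51, 16.2 and 27.9 in GL261 BMDM. BMDM exceeded MG in each GEMM tumour and was below it in each GL261 tumour, a difference of -3.57 ± 0.69 (SE, edgeR adjusted p = 0.0139), lost without GEMM MG 68702 (0.0542), and was -4.31 without GEMM MG BB30101. Plac8, a gene of monocytes and lymphocytes, stood at 8.32, 15.8 and 12.2 CPM in GEMM MG, 213, 237 and 352 in GEMM BMDM, 14.5, 6.85 and 5.88 in GL261 MG and 57.3, 50.2 and 40.4 in GL261 BMDM. BMDM exceeded MG in each tumour of both models, with a difference between models of -2.02 ± 0.40 (SE, edgeR adjusted p = 0.0167), and the call was lost without GEMM MG 68702 or BB30105 (0.0539 to 0.075). Blood monocytes held 872 to 996 CPM of Plac8.

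Among genes with a larger ratio in GL261, Sgk1 changed direction between the models. Sgk1, a kinase induced by glucocorticoids and serum that controls ion transport, stood at 1540, 1039 and 1270 CPM in GEMM MG, 791, 672 and 749 in GEMM BMDM, 461, 434 and 279 in GL261 MG and 1321, 1240 and 940.2 in GL261 BMDM. BMDM was below MG in each GEMM tumour and above it in each GL261 tumour. The ratio was -0.80 in GEMM (edgeR adjusted p = 0.0134) and 1.58 in GL261 (edgeR adjusted p = 9.82e-05), a difference of 2.38 ± 0.31 (SE, edgeR adjusted p = 0.001302). Normal MG held 1895, 2399 and 2197 CPM and monocytes 88.3 to 145. Sgk1 was the 1 gene of the 22 tested members of a glucocorticoid and stress response list that was called (4.55%, against 0.605% of all genes). The list as a whole was not shifted, with 11 members positive, 11 negative and a median of -0.09 against -0.06 over all genes.

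Receptors for the constant part of antibodies came next. Fcgr2b, the inhibitory Fc gamma receptor, stood at 759.9, 851 and 630.2 CPM in GEMM MG, 528, 629 and 442 in GEMM BMDM, 539, 524 and 711 in GL261 MG and 1365, 1282 and 1615 in GL261 BMDM. GL261 BMDM lay above the 9 other tumour libraries. The ratio was -0.49 in GEMM and 1.26 in GL261, a difference of 1.75 ± 0.26 (SE, edgeR adjusted p = 0.002801). Fcgr3, an activating Fc gamma receptor, stood at 2288, 1966 and 2013 CPM in GEMM MG, 1155, 1111 and 859 in GEMM BMDM, 1189, 1155 and 791 in GL261 MG and 1522, 1270 and 1586 in GL261 BMDM. It was lower in BMDM than in MG in each GEMM tumour and higher in each GL261 tumour, with a difference of 1.49 ± 0.23 (SE, edgeR adjusted p = 0.00439). Fcer1g, the signalling chain shared by activating Fc receptors, stood at 2049, 1972 and 1986 CPM in GEMM MG, 1769, 1499 and 1516 in GEMM BMDM, 1128, 1013 and 781 in GL261 MG and 1469, 1764 and 1552 in GL261 BMDM. The Fcer1g difference was 1.04 ± 0.20 (SE, edgeR adjusted p = 0.0139), lost with the tumour block (0.0606) and without GEMM BMDM BB30101 or BB30105 (0.054 to 0.0612). Of 11 Fc receptor genes tested, these 3 were called larger in edgeR (27.3%, against 0.605% of all genes) and none smaller, with a median of 0.90 against -0.06 over all genes. With total-count scaling, in DESeq2, and without GEMM BMDM 68702 or GL261 MG 80767, 1 member in each case was called smaller, and 2 were larger without GEMM BMDM BB30101 or BB30105. Fcgr2b and Fcgr3 are related neighbours and can share reads.

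The other 4 genes called in the 3 fits with a larger ratio encode enzymes, a pump subunit and a chaperone. Cndp2, a cytosolic dipeptidase, stood at 315, 343 and 308 CPM in GEMM MG, 287, 314 and 254 in GEMM BMDM, 288, 254 and 222 in GL261 MG and 588, 562 and 564 in GL261 BMDM. Aldh3b1, an aldehyde dehydrogenase, stood at 43.6, 49.3 and 42.5 CPM in GEMM MG, 61.4, 60.8 and 42.3 in GEMM BMDM, 31.6, 26.1 and 33.1 in GL261 MG and 111, 97.97 and 110.1 in GL261 BMDM. GL261 BMDM lay above all 9 other tumour libraries in both genes. The differences between models were 1.34 ± 0.18 (SE, edgeR adjusted p = 0.00158) and 1.53 ± 0.22 (SE, edgeR adjusted p = 0.00248). Atp1b3, a beta subunit of the sodium-potassium pump, stood at 586, 490.1 and 513 CPM in GEMM MG, 406, 416 and 404 in GEMM BMDM, 297, 252 and 250.4 in GL261 MG and 503, 489 and 476 in GL261 BMDM. Lrpap1, a chaperone for receptors of the LDL receptor family, stood at 446, 460.2 and 425 CPM in GEMM MG, 259, 249 and 221 in GEMM BMDM, 242, 212 and 185 in GL261 MG and 294, 279 and 306 in GL261 BMDM. Both were lower in BMDM than in MG in each GEMM tumour and higher in each GL261 tumour, with GL261 MG the low group of Atp1b3. Their differences were 1.25 ± 0.18 (SE, edgeR adjusted p = 0.00245) and 1.33 ± 0.19 (SE, edgeR adjusted p = 0.00255).

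Most lysosomal genes had a positive difference between models, and 4 of them passed the test. Of 26 lysosomal enzymes and cathepsins tested, 4 were called larger (15.4%, against 0.605% of all genes) and none smaller, 24 had a positive difference, and the median was 0.80 against -0.06 over all genes. With total-count scaling 2 were called, 23 were positive and the median was 0.52 against -0.36, with the tumour block 2 were called, and with RLE size factors 7 were. In DESeq2 13 were called and in limma-voom 8, all larger. The count was 1 without GEMM BMDM BB30101 or BB30105, 2 without GL261 BMDM 80769 and 13 without GEMM BMDM 68702, the library with the high neutrophil marker sum. In 18 of the 26 the GL261 ratios lay above the GEMM ratios without overlap, against 13.1% of all genes. The list median for BMDM against MG was -0.45 in GEMM and 0.41 in GL261, and for GL261 against GEMM it was -1.10 in MG and -0.29 in BMDM.

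Ctsl (cathepsin L), a lysosomal cysteine protease, stood at 2583, 2125 and 2314 CPM in GEMM MG, 401, 525 and 521 in GEMM BMDM, 855, 947 and 1279 in GL261 MG and 527, 739 and 2936 in GL261 BMDM. Each GEMM MG library lay above each GEMM BMDM library, while the GL261 groups overlapped and BMDM of tumour 80769 was the highest of the GL261 libraries. Its difference of 2.73 ± 0.58 (SE, edgeR adjusted p = 0.0235) was lost with the tumour block (0.0656) and without GEMM BMDM BB30101 or BB30105 or GL261 MG 80767 (0.05 to 0.0604), and was 1.56 without GL261 BMDM 80769, where it was still called. Ctsz (cathepsin Z) stood at 4731, 4823 and 5994 CPM in GEMM MG, 2530, 2412 and 2553 in GEMM BMDM, 3455, 2465 and 2191 in GL261 MG and 3377, 3079 and 3059 in GL261 BMDM, with a difference of 1.28 ± 0.23 (SE, edgeR adjusted p = 0.00891). Ctsa (cathepsin A), which also protects other lysosomal enzymes, stood at 2682, 2750 and 2541 CPM in GEMM MG, 2405, 1878 and 1560 in GEMM BMDM, 1238, 1173 and 908 in GL261 MG and 1560, 1572 and 1810 in GL261 BMDM. The Ctsa difference of 1.02 ± 0.23 (SE, edgeR adjusted p = 0.0286) was lost with the tumour block (0.0869), with total-count scaling (0.0577), without the filter on low counts (0.0695) and without GEMM BMDM BB30101 or BB30105 or GL261 BMDM 80769 (0.0658 to 0.0931). Hexa, the alpha subunit of beta-hexosaminidase, stood at 1443, 1247 and 1538 CPM in GEMM MG, 1188, 878 and 876 in GEMM BMDM, 798, 641 and 600.4 in GL261 MG and 867, 845 and 1035 in GL261 BMDM. Hexa differed by 0.95 ± 0.22 (SE, edgeR adjusted p = 0.0364), lost with the tumour block (0.0903), with total-count scaling (0.0785), without the filter on low counts (0.0837) and without GEMM MG 68702 or BB30105, GEMM BMDM BB30101 or BB30105, GL261 MG 80767 or 80769 or GL261 BMDM 80769 (0.0524 to 0.117). In Ctsz, Ctsa and Hexa, GEMM MG had the highest group mean, and the lowest was GEMM BMDM in Ctsz and GL261 MG in Ctsa and Hexa.

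The transcription factor TFEB is known to bind an E-box in the promoters of many lysosomal genes, and its palindromic core, TCACGTGA, was looked for in the 250 bases before the start sites that RefSeq annotates on GRCm38.p6. It lay in 4 of 87 such windows of the 93 genes with a larger ratio (4.60%), in 1 of 156 windows of the 157 genes with a smaller ratio (0.641%), and in 1.37% of the 13846 windows of all genes tested. Of the lysosomal list's 24 windows, 12.5% held it. Promoters were matched for 66 of the 93 genes, 113 of the 157 and 10847 of the 15363. The 4 windows of genes with a larger ratio are shown because they let the E-box, in capitals, be read beside the expression values; these genes were picked after their values and sequences were seen. Each runs 5′ to 3′ on the gene's strand, and in Mfsd1 1 of the 3 matches in the 250 bases is in capitals. They are at chr2:164833734-164833772 (plus strand), chr17:25240117-25240164 (minus), chr3:67582671-67582730 (plus) and chr5:104046661-104046720 (plus).
Ctsa: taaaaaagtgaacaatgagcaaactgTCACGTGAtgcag
Gnptg: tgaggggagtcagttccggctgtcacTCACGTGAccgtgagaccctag
Mfsd1: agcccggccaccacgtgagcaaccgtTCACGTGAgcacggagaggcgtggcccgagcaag
Nudt9: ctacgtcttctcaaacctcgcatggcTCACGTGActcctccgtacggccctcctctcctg

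Of these 4 genes, Gnptg encodes the gamma subunit of the enzyme that tags lysosomal proteins with mannose 6-phosphate, Mfsd1 a lysosomal membrane transporter, and Nudt9 an ADP-ribose hydrolase. Gnptg differed between models by 0.76 ± 0.16 (SE, edgeR adjusted p = 0.0184), Mfsd1 by 1.09 ± 0.25 (SE, edgeR adjusted p = 0.0364) and Nudt9 by 0.66 ± 0.16 (SE, edgeR adjusted p = 0.0452), with no overlap of the models' ratios. Mean levels of Mfsd1 were 391 CPM in GEMM MG, 292.5 in GEMM BMDM, 239 in GL261 MG and 380.3 in GL261 BMDM. The 1 window among genes with a smaller ratio belonged to Siglech. A match is a description of the letters and does not show binding. PU.1 (GAGGAAGT), AP-1 (TGANTCA), a PU.1 and IRF composite (GGAA and GAAA with 2 bases between) and the HIF core (ACGTG, which lies within the TFEB E-box) were also searched on both strands. They lay in 2.30%, 5.75%, 3.45% and 18.4% of windows of genes with a larger ratio, in 3.21%, 7.69%, 5.77% and 12.8% of those with a smaller one, and in 2.49%, 4.99%, 2.11% and 20.4% of all.

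Disease-associated microglia genes, a set known from microglia near plaques and damage, overlap with the lysosomal list in Ctsl, Ctsz, Ctsb and Ctsd. Of 26 tested, 3 were called larger in edgeR (11.5%, against 0.605% of all genes), of which Ctsl and Ctsz are already counted among the lysosomal genes; 24 had a positive difference, and the median was 1.04, or 0.745 with total-count scaling. The count was 1 without GEMM BMDM BB30101 or BB30105 or GL261 MG 80767, and 6 without GEMM BMDM 68702. Cd68, a lysosome-associated glycoprotein of macrophages, stood at 1439, 1735 and 1437 CPM in GEMM MG, 1331, 1190 and 1014 in GEMM BMDM, 596, 514 and 770.5 in GL261 MG and 948, 972 and 1955 in GL261 BMDM. BMDM was below MG in each GEMM tumour and above it in each GL261 tumour. Cd68 differed by 1.43 ± 0.32 (SE, edgeR adjusted p = 0.03196), a call lost with total-count scaling (0.0595) and without GEMM BMDM BB30101 or BB30105 or GL261 MG 80767 (0.0689 to 0.079); without GL261 BMDM 80769 it was 0.98 and called. Gpnmb, a membrane glycoprotein of lipid-laden macrophages, had the largest negative value of the list at -1.94, which did not pass the test (edgeR adjusted p = 0.206). Apoe, the lipid carrier, and Spp1 (osteopontin) had values of 1.21 and 1.95 that did not pass either (edgeR adjusted p = 0.366 and 0.285).

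Genes of sterol and lipid handling were called in both directions. Ch25h, which makes 25-hydroxycholesterol, stood at 71.7, 33.9 and 30.1 CPM in GEMM MG, 4.48, 4.92 and 17.6 in GEMM BMDM, 22.2, 18.6 and 21.6 in GL261 MG and 47.3, 57.9 and 43.1 in GL261 BMDM. BMDM was below MG in each GEMM tumour and above it in each GL261 tumour, and normal MG held at most 1.47 CPM. Ch25h had the largest called positive difference among genes at 20 CPM or more, 3.58 ± 0.62 (SE, edgeR adjusted p = 0.00795), lost with the tumour block (0.0575), and was 4.49 without GEMM BMDM BB30105. Scarb1, the receptor for high-density lipoprotein, differed by 1.08 ± 0.26 (SE, edgeR adjusted p = 0.0418), lost with total-count scaling (0.0722), without the filter on low counts (0.0534) and without GEMM MG 68702, GEMM BMDM BB30101 or BB30105, GL261 MG 80767 or GL261 BMDM 80766 (0.0644 to 0.108). Npc2, which carries cholesterol out of lysosomes, differed by 0.82 ± 0.20 (SE, edgeR adjusted p = 0.0441), lost with the tumour block (0.0878), with total-count scaling (0.116), without the filter on low counts (0.1103) and without GEMM MG 68702 or BB30105, GEMM BMDM BB30101 or BB30105, GL261 MG 80767 or 80769 or GL261 BMDM 80766 or 80769 (0.053 to 0.136). Dhcr7, the last enzyme of cholesterol synthesis, differed by 0.86 ± 0.21 (SE, edgeR adjusted p = 0.0461), lost with the tumour block (0.0549), with total-count scaling (0.16), without the filter on low counts (0.101) and without GEMM MG 68702 or BB30105, GEMM BMDM BB30101 or BB30105, GL261 MG 80766, 80767 or 80769 or GL261 BMDM 80766 or 80769 (0.0517 to 0.138). GL261 MG was the lowest of the 4 group means for Scarb1 and Npc2.

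Srebf2, the transcription factor that drives cholesterol synthesis, went the other way and stood at 9.75, 13.6 and 12.8 CPM in GEMM MG, 29.3, 52.8 and 52.96 in GEMM BMDM, 37.2, 47.98 and 54 in GL261 MG and 49.6, 47.98 and 65.7 in GL261 BMDM. GEMM MG was low and the GL261 groups overlapped. Srebf2 differed by -1.67 ± 0.32 (SE, edgeR adjusted p = 0.0139), a call lost without GEMM MG 68702 (0.0604). Of 25 cholesterol and lipid handling genes tested, 2 were called larger in edgeR (Npc2 and Dhcr7, 8% against 0.605% of all genes) and 1 smaller (4% against 1.02%), with a median of 0.31, or 0.05 and 2 smaller calls with total-count scaling. With 1 library left out, 0 to 5 were called larger, the most without GEMM BMDM 68702, and 0 to 2 smaller.

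Cd14, Clec4a3, Lat2 and C1qc, which act in innate immunity, were called larger in GL261, whereas the sialic acid receptors Siglecg and Siglech were called smaller. Cd14, the coreceptor for bacterial lipopolysaccharide, stood at 1462, 1507 and 1577 CPM in GEMM MG, 1118, 1079 and 1424 in GEMM BMDM, 584, 670.1 and 236 in GL261 MG and 1659, 1587 and 1180 in GL261 BMDM. GL261 MG was the low group, and GL261 BMDM overlapped both GEMM groups. Cd14 differed by 1.90 ± 0.42 (SE, edgeR adjusted p = 0.0286), lost without GEMM MG 68702, GEMM BMDM BB30101 or BB30105 or GL261 BMDM 80766 (0.052 to 0.0986). Clec4a3, a C-type lectin receptor, stood at 78.97, 115 and 80.6 CPM in GEMM MG, 104, 168 and 96.5 in GEMM BMDM, 58.9, 64.2 and 145 in GL261 MG and 398, 283 and 479 in GL261 BMDM. GL261 BMDM exceeded every other tumour library, and the difference of 1.69 ± 0.42 (SE, edgeR adjusted p = 0.04803) was lost with total-count scaling (0.0873), without the filter on low counts (0.0534) and without GEMM MG 68702 or BB30101, GEMM BMDM BB30105, GL261 MG 80766 or 80767 or GL261 BMDM 80766 or 80769 (0.0537 to 0.116). Lat2, an adaptor of immune receptor signalling, differed by 1.54 ± 0.28 (SE, edgeR adjusted p = 0.00997) and kept its call with each library left out in turn. C1qc, a chain of complement C1q, differed by 1.18 ± 0.27 (SE, edgeR adjusted p = 0.0379), lost with the tumour block (0.0661), with total-count scaling (0.0738), without the filter on low counts (0.0857) and without GEMM MG 68702 or BB30105, GEMM BMDM BB30101 or BB30105, GL261 MG 80767 or GL261 BMDM 80766 or 80769 (0.0556 to 0.128).

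Ly6i, a small surface protein of the Ly6 family, stood at 4.38, 6.64 and 9.3 CPM in GEMM MG, 4.92, 2.31 and 9.699 in GEMM BMDM, 9.34, 11.3 and 7.93 in GL261 MG and 94.4, 95.1 and 23.8 in GL261 BMDM. GL261 BMDM lay above the 9 other tumour libraries. Ly6i differed by 3.17 ± 0.77 (SE, edgeR adjusted p = 0.0451), lost with the tumour block (0.0541), with total-count scaling (0.0599), without the filter on low counts (0.101) and without GEMM MG 68702 or BB30105, GEMM BMDM 68702 or BB30101, GL261 MG 80766, 80767 or 80769 or GL261 BMDM 80766 or 80767 (0.053 to 0.114), and was 3.80 without GEMM BMDM BB30105; its reads can be shared with near-identical Ly6 genes. Tmem51, a transmembrane protein, stood at 33.5, 40.4 and 27.4 CPM in GEMM MG, 105, 65.3 and 43.2 in GEMM BMDM, 6.43, 6.501 and 17.7 in GL261 MG and 88.9, 85.8 and 110.1 in GL261 BMDM. Abcg3, an ABC transporter, stood at 50.5, 52.97 and 64.5 CPM in GEMM MG, 138, 132 and 95.5 in GEMM BMDM, 25.3, 13.97 and 13.4 in GL261 MG and 247, 119.5 and 72.96 in GL261 BMDM. For both, BMDM exceeded MG in all 6 tumours, by more in GL261. Tmem51 differed by 2.14 ± 0.49 (SE, edgeR adjusted p = 0.0365), lost with total-count scaling (0.0514) and without GEMM MG 68702, GEMM BMDM BB30101 or BB30105, GL261 MG 80766 or 80767 or GL261 BMDM 80769 (0.0527 to 0.0862), and was 2.80 without GL261 MG 80769. Abcg3 differed by 1.94 ± 0.45 (SE, edgeR adjusted p = 0.0355), lost without the filter on low counts (0.0657) and without GEMM MG 68702 or BB30105, GEMM BMDM BB30101 or BB30105, GL261 MG 80767 or 80769 or GL261 BMDM 80766 (0.0561 to 0.102).

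Nrp2 (neuropilin 2), a receptor for semaphorin and vascular growth factors, stood at 73.5, 62.9 and 49.02 CPM in GEMM MG, 28.02, 21.99 and 26.1 in GEMM BMDM, 36.7, 46.3 and 43.3 in GL261 MG and 49.6, 60.9 and 104 in GL261 BMDM. BMDM was below MG in each GEMM tumour and above it in each GL261 tumour, a difference of 2.04 ± 0.38 (SE, edgeR adjusted p = 0.0123). Adssl1, an enzyme of adenine nucleotide synthesis, differed by 1.70 ± 0.28 (SE, edgeR adjusted p = 0.00647), and monocytes held 236 to 285 CPM, above every tumour library. Both kept their calls with each library left out in turn. Plaur, the urokinase receptor, was higher in BMDM in each tumour and differed by 1.35 ± 0.32 (SE, edgeR adjusted p = 0.04205), lost with total-count scaling (0.0727), without the filter on low counts (0.0755) and without GEMM MG BB30101 or BB30105, GEMM BMDM BB30101 or BB30105, GL261 MG 80767 or GL261 BMDM 80766 (0.0517 to 0.122). Bmp2, a growth factor of the BMP family at 7.79 CPM or less in the 12 libraries, had a difference of -4.04 ± 0.97 (SE, edgeR adjusted p = 0.0428), lost with the tumour block (0.0775), without the filter on low counts (0.0531) and without GEMM MG 68702 or BB30101, GEMM BMDM BB30101 or BB30105, GL261 MG 80766 or 80769 or GL261 BMDM 80766, 80767 or 80769 (0.0564 to 0.119), and was -3.22 when GEMM BMDM BB30105 was left out and -4.72 when GEMM MG BB30105 was.

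**Figure D4:**
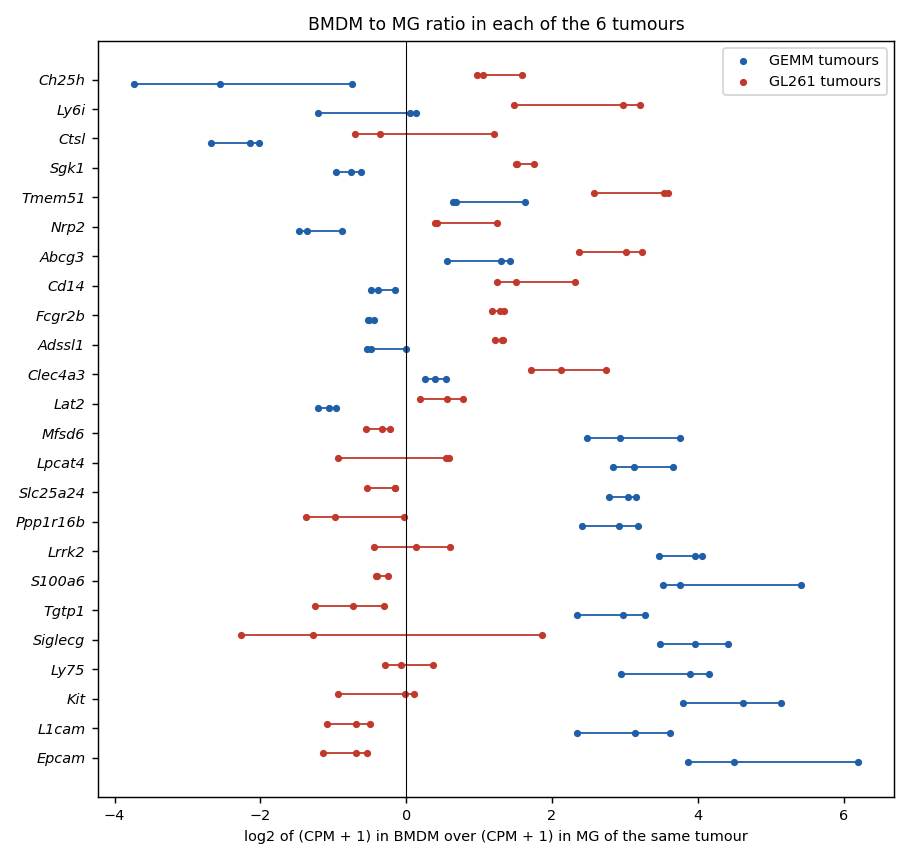
Log2 ratio of BMDM to MG (1 CPM added) in each of the 6 tumours for the 24 genes with the largest called differences at 20 CPM or more, 1 point per tumour and a line over each model's range. The blue GEMM and red GL261 ranges do not overlap for any of the 24, which were chosen for that.

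Hypoxia and glycolysis genes included 2 called larger in GL261 of 27 tested in edgeR (7.41%, against 0.605% of all genes), with a median of 0.37, or 0.06 and no call with total-count scaling. None was called larger without GEMM BMDM BB30105, GL261 MG 80767 or GL261 BMDM 80769, and 4 were without GL261 BMDM 80766. Pdk1, which diverts pyruvate from the mitochondrion, stood at 95.2, 81.9 and 95.3 CPM in GEMM MG, 35.3, 40.4 and 28.3 in GEMM BMDM, 54.5, 49.9 and 56.8 in GL261 MG and 39.2, 48.9 and 53.2 in GL261 BMDM. BMDM was below MG in each tumour of both models, by less in GL261, with a difference of 1.20 ± 0.26 (SE, edgeR adjusted p = 0.0273), lost with total-count scaling (0.0774), without the filter on low counts (0.0531) and without GEMM BMDM BB30105, GL261 MG 80767 or GL261 BMDM 80769 (0.0644 to 0.0909). Hif1a, the oxygen-regulated transcription factor, stood at 949, 665 and 704 CPM in GEMM MG, 421, 508 and 441 in GEMM BMDM, 312, 276 and 341 in GL261 MG and 357, 345 and 399.9 in GL261 BMDM. GEMM MG was the highest group and GL261 MG the lowest. Hif1a differed by 1.00 ± 0.23 (SE, edgeR adjusted p = 0.0342), lost with the tumour block (0.07396), with total-count scaling (0.109), without the filter on low counts (0.07399) and without GEMM MG 68702, GEMM BMDM BB30101 or BB30105, GL261 MG 80767 or GL261 BMDM 80769 (0.0522 to 0.0922).

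In 2 microglia genes, the ratio was further below 0 in GL261 than in GEMM. Siglech, a sialic acid receptor of microglia, stood at 849, 612 and 1200 CPM in GEMM MG, 49.1, 50.95 and 182 in GEMM BMDM, 482, 354 and 71.6 in GL261 MG and 1.97, 2.22 and 3.35 in GL261 BMDM. Crybb1, a crystallin gene used as a microglia marker, stood at 99.3, 57.9 and 104 CPM in GEMM MG, 5.57, 4.05 and 12.8 in GEMM BMDM, 94.8, 111 and 19.8 in GL261 MG and 0.554, 0.618 and 0.976 in GL261 BMDM. GL261 BMDM held at most 3.35 CPM of Siglech and 0.976 of Crybb1, while GEMM BMDM kept 49.1 to 182 CPM of Siglech and 4.05 to 12.8 of Crybb1. Siglech differed by -3.67 ± 0.83 (SE, edgeR adjusted p = 0.0331), lost with the tumour block (0.114), without the filter on low counts (0.0722) and without GEMM MG 68702 or BB30101, GEMM BMDM BB30105, GL261 MG 80766 or 80767 or GL261 BMDM 80766 or 80767 (0.0591 to 0.091), and was -2.80 without GEMM BMDM BB30105. Crybb1 differed by -3.15 ± 0.73 (SE, edgeR adjusted p = 0.0367), lost with the tumour block (0.107), without the filter on low counts (0.0772) and without GEMM MG 68702, BB30101 or BB30105, GEMM BMDM BB30105, GL261 MG 80766 or 80767 or GL261 BMDM 80766, 80767 or 80769 (0.0512 to 0.105), and was -2.55 without GEMM BMDM BB30105. For both, the ratio of tumour 80769 lay within the GEMM range, so the models' ratios overlapped.

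The other microglia and sort genes did not pass the test. P2ry12 had a difference of -0.21 ± 0.60 (SE, edgeR adjusted p = 0.925), Tmem119 of 0.05 ± 0.92 (SE, edgeR adjusted p = 0.9999) and Sall1, a transcription factor of microglia, of -2.86 ± 0.87 (SE, edgeR adjusted p = 0.106). Of 26 microglia identity genes tested, 2 were called smaller in edgeR (7.69%, against 1.02% of all genes) and none larger, 13 were positive and 13 negative, and the median was -0.08 (-0.375 with total-count scaling, against -0.36 for all genes). DESeq2 called 2 larger and 3 smaller and limma-voom 1 larger and none smaller. Without GL261 MG 80769 edgeR called 3 smaller, and without GEMM BMDM 68702 it called 2 larger. Itga4 had a difference of -2.19 ± 0.61 (SE, edgeR adjusted p = 0.0772) and Ccr2 of -0.56 ± 0.66 (SE, edgeR adjusted p = 0.749). Of 27 genes of monocytes and recruited macrophages, 2 were called smaller in edgeR (7.41%), S100a6 and Plac8, and none larger, with a median of -0.56. DESeq2 called 1 larger and 3 smaller, limma-voom 3 smaller, and edgeR none smaller without GEMM MG 68702, 5 smaller without GEMM MG BB30101 and 1 larger without GL261 MG 80769. Ptprc (CD45), Itgam (CD11b), Ly6c2 and Flt3, whose products or promoter define the sort, had differences of 0.52, 0.51, 1.54 and -1.18, none called in edgeR. Compared between the BMDM groups, Ly6c2 was higher in GL261 (log2 3.17, edgeR adjusted p = 6.94e-04) and Flt3 lower (-2.84, edgeR adjusted p = 0.0149). Ptprc and Itgam were not called there. Ly6c2 stood at 73.0, 51.4 and 21.8 CPM in GL261 BMDM and at 3.515 to 7.31 in GEMM BMDM, against 825 to 1245 in blood monocytes.

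Most MHC class II presentation genes had a negative difference, and 1 of them passed the test. Of 16 genes tested, 1 was called smaller in edgeR, Ciita (6.25%, against 1.02% of all genes), none larger, 14 were negative, and the median was -1.28. With the tumour block 6 were called smaller, in DESeq2 5 and in limma-voom 2, and with 1 library left out 0 to 2. The class II chain genes H2-Eb1, H2-Aa and H2-Ab1 and the invariant chain gene Cd74 had differences of -1.78, -1.66, -1.26 and -1.53, with edgeR adjusted p of 0.0966, 0.128, 0.206 and 0.141. With the block, these 4 had edgeR adjusted p of 0.0212, 0.0217, 0.0456 and 0.0261. Mean Cd74 levels were 2591 CPM in GEMM MG, 23780 in GEMM BMDM, 6111 in GL261 MG and 19440 in GL261 BMDM. H2 genes share sequence and can share reads.

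Of 24 dendritic cell genes tested, 4 were called smaller in edgeR (16.7%, against 1.02% of all genes), Kit, Ly75, Xcr1 and Ciita, and none larger, and 21 were negative with a median of -1.32 (-1.65 with total-count scaling). With the block 6 were called smaller, DESeq2 called 5 smaller and 1 larger, and limma-voom 4 smaller. Of the members not called, Flt3, Ccr7 and Zbtb46 had differences of -1.18, -1.65 and -1.66 (edgeR adjusted p = 0.657, 0.667 and 0.265). Flt3 itself stood at 3.25, 16.1 and 2.83 CPM in GEMM MG, 102, 253 and 211 in GEMM BMDM, 0.814, 0.354 and 5.8 in GL261 MG and 14.1, 10.6 and 54.3 in GL261 BMDM. It was highest in GEMM BMDM and lower in both GL261 groups than in GEMM BMDM. The summed dendritic cell markers were also highest in GEMM BMDM, but Flt3 is 1 of the markers in that sum.

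**Figure D5:**
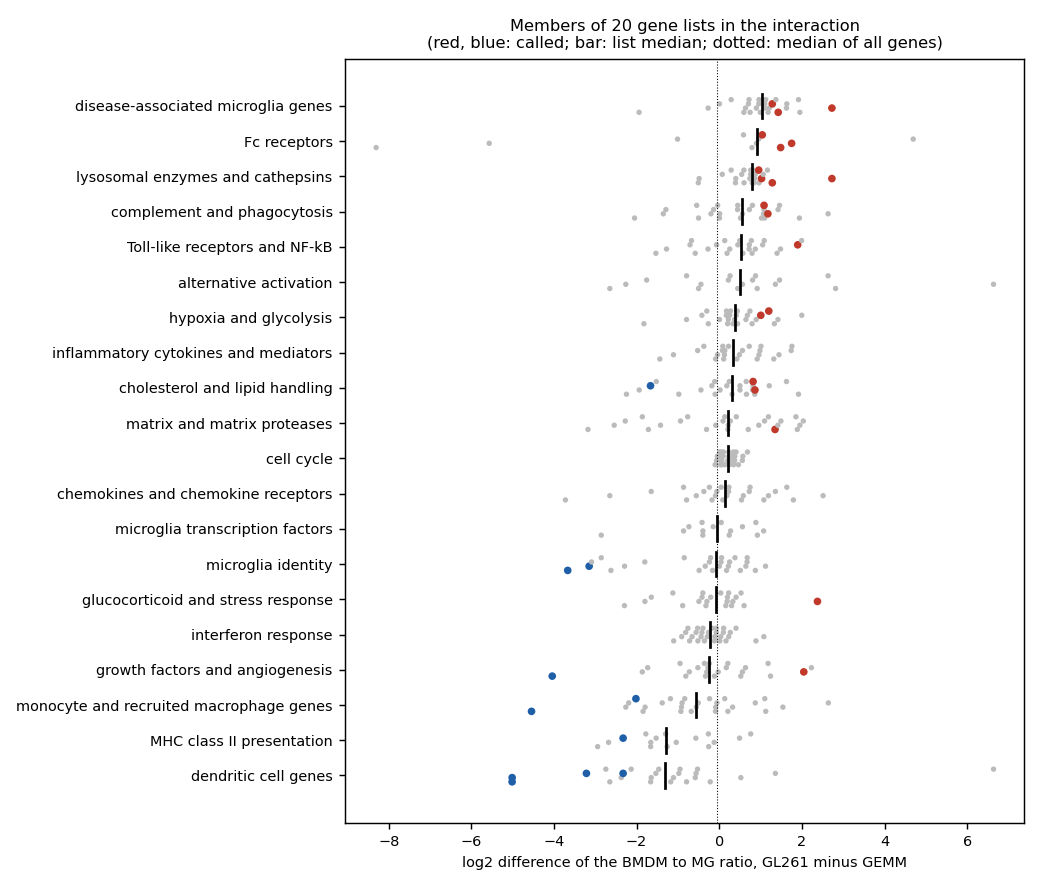
Difference between models of the BMDM to MG ratio (log2) for each tested member of 20 gene lists, ordered by list median; called members are red (larger in GL261) or blue (smaller). Disease-associated microglia genes and lysosomal enzymes have medians of 1.04 and 0.80, MHC class II and dendritic cell genes -1.28 and -1.32.

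In the remaining lists, calls were few or absent. Of all genes, 0.605% were called larger and 1.02% smaller. Complement and phagocytosis genes had 2 of 26 called larger (7.69%), C1qc and Scarb1, with a median of 0.54. With total-count scaling this list had no larger and 1 smaller call. Toll-like receptor and NF-kB genes had 1 of 24 called larger (4.17%, Cd14, median 0.53) and matrix genes 1 of 27 (3.7%, Plaur, 0.22). Growth factor genes had 1 larger (Nrp2, 4.35%) and 1 smaller (Bmp2, 4.35%) of 23, with a median of -0.24. With 1 library left out, larger calls numbered 0 to 4 for complement and phagocytosis, 0 to 3 for Toll-like receptors and 0 to 2 for matrix genes, each with the most without GEMM BMDM 68702. In the 20-library edgeR fit, no member was called among 14 microglia transcription factors (median -0.05), 24 inflammatory mediators (0.33), 26 chemokines and receptors (0.13), 18 alternative activation genes (0.50), 30 interferon response genes (-0.22) and 28 cell cycle genes (0.22), against 1.63% of all genes. In the same order, 4, 4, 3, 2, 1 and 0 members had an unadjusted p under 0.05 in edgeR, as did 2352 of all 15363 genes. DESeq2 called 1 transcription factor smaller and 1 alternative activation gene larger, and limma-voom called no member of these 6 lists. With the tumour block, edgeR called 1 of the chemokine list larger, Ccl6 (adjusted p = 0.0442). Among these 6 lists, leaving out 1 library gave 1 smaller transcription factor without GL261 MG 80769, 1 smaller chemokine list member without GL261 BMDM 80769 and 1 larger alternative activation gene without GEMM MG BB30105. With total-count scaling the medians of the matrix, chemokine and cell cycle lists turned negative, at -0.11, -0.15 and -0.10, against -0.36 for all genes.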

How the data were processed

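PolyA RNA from sorted cells was sequenced, and the deposited table holds raw read counts per gene symbol for 20 libraries, which the authors made; the build mm10 and the tools STAR 2.5.0e, HTSeq, CASAVA 1.8 and DESeq2 are listed, without role or order, per the submitters' processing notes. For the counting, annotation and strand are not given in the sources used, so reads of overlapping or antisense genes cannot be told apart. Of 23329 symbols, 21798 had a count.

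Counts were tested as deposited with edgeR 4.0.16 (quasi-likelihood test, TMM scaling, filterByExpr with a minimum count of 10 and a minimum total of 15, R 4.3.3) over 6 groups, which left 15363 genes; p-values were Benjamini-Hochberg adjusted over all of them with a threshold of 0.05. The SE beside a difference is its absolute value divided by the square root of the test's F statistic. It restates the test and is not a separate measure of spread. DESeq2 1.42.0 and limma-voom (limma 3.58.1) were alternatives. CPM and log2 ratios were computed from the deposited counts, and a ratio of BMDM to MG used 1 CPM as pseudocount. Counts of the 12 tumour libraries allow precise values for abundant genes, and replicates are separate tumours, per the series' design.

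MG and BMDM with the same number came from the same tumour. Deviations from the group means of same-numbered libraries correlated at 0.281 to 0.514 across genes, so the tumour was also used as a block. No libraries agreed within sampling noise. On simulated counts of 15094 genes for the interaction, the 20-library edgeR test recovered 48.0% of 4-fold and 8.33% of 2-fold changes, with 7 false calls of 63. The simulated libraries were drawn independently, with no shared tumour, and with the spread of the 20-library fit. On them the 12-library test made 65 calls, 6 of them false, whereas on the data it made 21. The simulation therefore does not measure the share of false calls among the 250.

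Named genes were, per direction, the 12 called genes with the largest difference among those with a group mean of 20 CPM or more and no overlap of ratios, the genes called in 3 fits, up to 4 called members per list, and 9 genes that define the lineages or the sort. The genes and the 20 gene lists were chosen with earlier results of these data known. Coordinates and sequences are from RefSeq on GRCm38.p6, in which all 60 named genes were found.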

Additional observations from a re-analysis of the deposited data

Results flagged for a closer look

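The lineage difference itself differed between the models, by the test of the difference in edgeR, for 93 genes with a larger and 157 genes with a smaller BMDM to MG ratio in GL261. In 15 of these 250, BMDM and MG differed in both models and in opposite directions. Named after their values were seen where the rule for named genes does not hold them, 9 were lower in BMDM in GEMM and higher in GL261. Their log2 differences between models were 2.38 for Sgk1, 1.25 for Atp1b3, 1.33 for Lrpap1, 1.49 for Fcgr3, 1.35 for Sqrdl (a mitochondrial sulfide oxidase), 1.01 for Cux1 (a homeobox factor), 1.50 for Rnf103 (a ubiquitin ligase), 1.32 for Rab12 (a Rab GTPase known as a substrate of Lrrk2) and 1.04 for Prorsd1. The other 6 were higher in BMDM in GEMM and lower in GL261, with differences of -2.19 for Frat2 (a regulator of Wnt signalling), -4.07 for Prkcc (protein kinase C gamma), -1.80 for Vamp1 (a vesicle fusion protein), -1.18 for Zbtb20 (a zinc finger repressor), -0.74 for Phip and -1.16 for Rictor (the defining subunit of mTORC2, the complex that activates Sgk1). Groups of 3 tumours are too small for a test of single outlying libraries.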

How the results depend on the processing

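No call of the difference between models changed sign in any of 20 alternatives, of which total-count scaling, with and without the tumour block, was added after seeing the data. The count of larger and smaller ratios was 93 and 157, and became 373 and 435 in DESeq2, 162 and 181 in limma-voom (218 of the 250 kept), 117 and 152 with RLE size factors, 43 and 113 without the filter on low counts, and 7 and 14 with only the 12 tumour libraries. In the paired analysis, with the tumour as replicate block, it was 105 and 192. With total-count scaling it was 39 and 406, and with the block added 65 and 546. Leaving out 1 library gave 33 to 280 larger and 49 to 213 smaller ratios.

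Within GEMM, 1949 genes were higher and 1245 lower in BMDM, with 1105 to 2211 and 722 to 1481 when 1 library was left out and 1918 lower in DESeq2. Within GL261, 1646 were higher and 1046 lower, with 1098 to 1791 and 466 to 1193 when 1 library was left out. In DESeq2 1768 were lower there, and with total-count scaling 920 were higher and 3042 lower. Of the 51 named genes that were called, 24 kept the call without any 1 library and 27 lost it without at least 1. In limma-voom, Ly6i, Siglech, Crybb1 and Bmp2 were not called. On simulated counts at this depth and number of tumours most 2-fold differences were missed, so a gene without a call may still differ.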
